A study of Mus musculus with 24 samples.

Results

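The comparison described here set endothelial *Chd4* mutants (*Chd4-ECko*) against endothelial *Brg1* mutants (*Brg1-ECko*) in the non-endothelial (non-EC) cells of the embryonic day 12.5 mouse liver. It used the 3 *Chd4-ECko* and 3 *Brg1-ECko* non-EC libraries, 6 of the 24 libraries in the series, and the 12223 of 25361 listed genes that reached 1 TPM in at least 3 of the 12 non-EC libraries. TPM is a count of transcripts per length of gene, scaled to the same total in every library. The libraries of each liver cell fraction came from 3 embryos each of the controls, of both single mutants and of the double mutant (*Brg1/Chd4-ECdko*), and each library stands for a single embryo. With *VE-cadherin-Cre*+, *Chd4-ECko* embryos carried *Chd4* fl/fl and *Brg1* fl/+, and *Brg1-ECko* embryos carried *Brg1* fl/fl and *Chd4* fl/+, so both single mutants also had 1 floxed allele of the other gene. Both genes were homozygous for the floxed allele in *Brg1/Chd4-ECdko* embryos, and controls were Cre-negative littermates. Non-EC cells were what remained of a digested liver after red blood cell lysis and removal of cells bound by CD146 MicroBeads, and the CD146+ cells were the liver sinusoidal endothelial cells (LSECs). *VE-cadherin-Cre* acts in endothelial cells and in some blood cells, and the embryos were on a mixed genetic background. The study pooled the sexes because it saw no obvious effect of sex.

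CHD4 is the ATPase of the NuRD chromatin remodelling complex, which usually represses genes, and BRG1, encoded by *Smarca4*, is an ATPase of the BAF complexes, which usually open chromatin. Hepatoblasts, the fetal liver cells that make plasma proteins, are not a target of *VE-cadherin-Cre*. At this age the liver is also the main site of red blood cell formation, and it holds definitive erythroblasts, which make adult globins, beside circulating primitive red cells from the yolk sac, which make embryonic globins. The comparison addressed which changes the non-EC cells of both single mutants shared and which differed between the mutants.

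The libraries did not separate cleanly by genotype. Pearson's r of log2 TPM values across genes ranged from 0.951 to 0.991 between libraries of one genotype and from 0.962 to 0.990 between a *Chd4-ECko* and a *Brg1-ECko* library. *Chd4-ECko* replicate 1 had an r of 0.9898 with *Brg1-ECko* replicate 1 and 0.989 with *Brg1-ECko* replicate 3, above its r of 0.9748 and 0.9512 with *Chd4-ECko* replicates 2 and 3, and results that rest on it are given with and without it. Mitochondrially encoded transcripts took 7.37%, 3.43% and 2.33% of TPM for *Chd4-ECko* replicates 1 to 3 and 5.24%, 3.04% and 5.51% in the *Brg1-ECko* replicates. The Y-linked gene *Eif2s3y* was listed at 30.8, 15.2 and 1.28 TPM for *Chd4-ECko* against 0.678, 0.418 and 23.7 TPM for *Brg1-ECko*, whereas the control libraries were at 38 to 74.9 TPM, so sex was unequal between the groups and cannot be told apart from genotype in the control comparisons except through a fit with *Eif2s3y* as a covariate. The endothelial markers *Stab2*, *Mcam*, *Emcn* and *Cldn5* lay below the filter in non-EC cells, and *Cdh5* and *Pecam1* stood at 3.27% and 7.67% of their LSEC level in *Chd4-ECko* and 4.26% and 8.68% in *Brg1-ECko*.

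The targeted genes were not expected to be lost in this fraction and were measured as a check of it. *Chd4* was listed at 353, 328 and 328 TPM for *Chd4-ECko* against 406, 353 and 375 TPM for *Brg1-ECko*, with control embryos at 370, 350 and 378 TPM. The highest *Chd4-ECko* library (352.8 TPM) lay just below the lowest *Brg1-ECko* library (352.9 TPM), the exact permutation p was 0.1, the smallest possible, the log2 difference was -0.17 (95% interval -0.33 to -0.0028) and the adjusted p was 0.969. *Smarca4* was listed at 161, 161 and 174 TPM for *Chd4-ECko* against 189, 165 and 171 TPM for *Brg1-ECko*, which overlap, with a log2 difference of -0.08 (-0.24 to 0.08). The deposited values are per gene and do not resolve the floxed exons.

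No gene passed an adjusted p of 0.05 between *Chd4-ECko* and *Brg1-ECko* (limma, 0 of 12223 genes, 0%), and the lowest adjusted p was 0.489. At an unadjusted p under 0.05, 135 genes (1.1%) were higher and 219 genes (1.79%) were lower in *Chd4-ECko*, 354 in all and 2.9% of the genes tested. That share is below the threshold of 0.05 itself, so these counts show no excess over what no difference would give. The 95% interval of the log2 difference lay within ±1 for 10941 genes (89.5%) and within ±0.5 for 6368 genes (52.1%), with a median half-width of 0.36, so smaller differences were not measurable for many genes. The median over all genes was -0.05, and 36.8% of genes had a higher mean in *Chd4-ECko*. The libraries of the mutants did not overlap for 231 genes (1.89%) that were higher in *Chd4-ECko* and for 516 genes (4.22%) that were lower. With no difference, full separation of 3 libraries from 3 in either direction has a probability of 0.1, so these shares show no excess either. Without *Chd4-ECko* replicate 1, 9 genes passed. Higher in *Chd4-ECko* were *Hba-x*, *Hbb-bh1*, *Hbb-y*, *Tcfl5*, *Trap1a*, *Tnni1* and *Tnni3*, and lower were *Clk1* and *Emc2*.

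**Figure D1:**
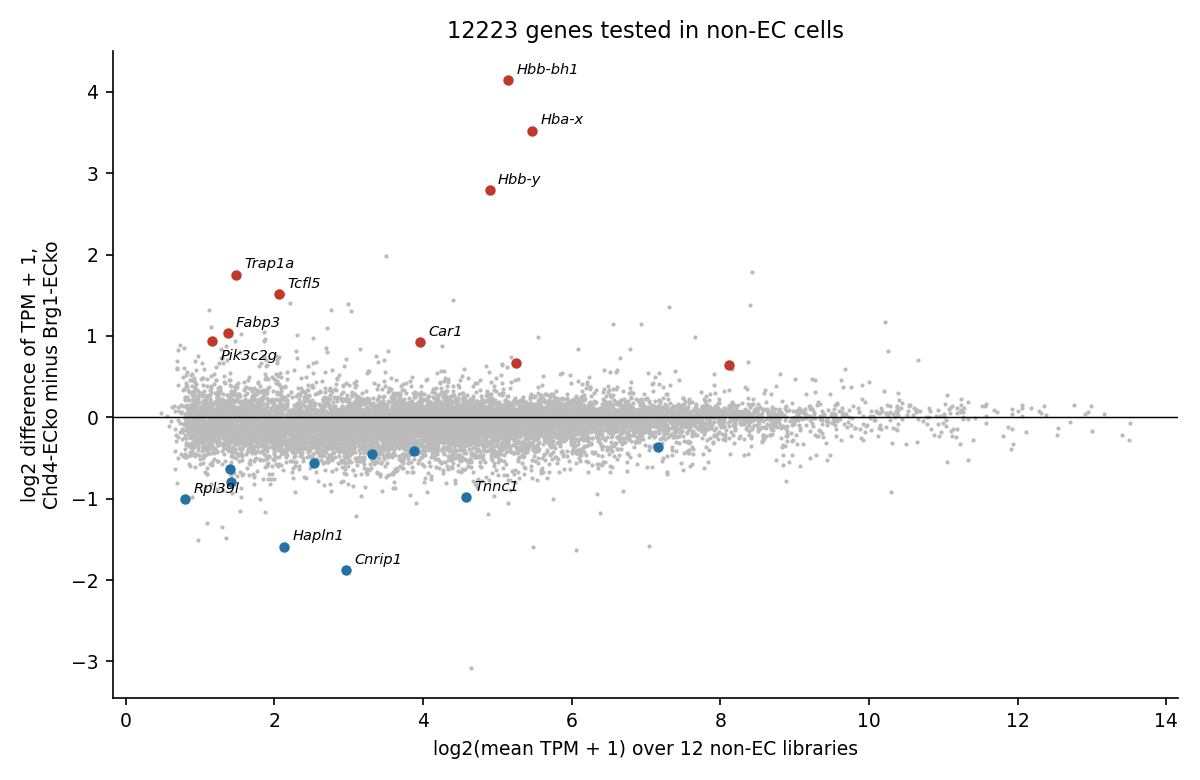
Difference between the single mutants for each of the 12223 genes tested in non-EC cells. The x axis is log2(mean TPM + 1) over the 12 non-EC libraries, the y axis is the log2 difference of *Chd4-ECko* minus *Brg1-ECko* on the log2(TPM + 1) scale, and red and blue points are the 10 genes with the lowest p in each direction. The cloud centres near the median of -0.05, the 3 embryonic globins lie at 2.79 to 4.14 and no point passed the adjusted test.

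The embryonic globins had the highest positive differences of the genes with the lowest p. The genes with the lowest p in each direction were picked by the contrast between the mutants itself. Their lack of overlap between the mutants, and intervals that exclude no difference, follow largely from that choice and are no added evidence. *Hbb-bh1* (chr7:103490844-103492371, minus strand) and *Hbb-y* (chr7:103500956-103502423, minus strand), the embryonic beta-type chains, lie in the beta-globin cluster, and *Hba-x* (chr11:32226400-32228116, plus strand), the zeta chain, lies in the alpha-globin cluster (protein-coding genes, GRCm39). The 250 bases before the start of the embryonic *Hbb-y* and *Hba-x* are shown with those of an adult gene of each cluster, *Hbb-bs* and *Hba-a1*. They come from RefSeq (GRCm38.p6, a different build, so these coordinates cannot be set beside the gene positions above). Capitals mark CACCC or CCAAT or GATAA or ATAAA on either strand, where a GATAAA would count for both GATAA and ATAAA. The letters CACCC are the core of the sites bound by KLF1 and GATAA is part of the site bound by GATA1, factors of red cell development, and ATAAA is part of the TATA box.
Hbb-y, chr7:103853208-103853457, minus strand: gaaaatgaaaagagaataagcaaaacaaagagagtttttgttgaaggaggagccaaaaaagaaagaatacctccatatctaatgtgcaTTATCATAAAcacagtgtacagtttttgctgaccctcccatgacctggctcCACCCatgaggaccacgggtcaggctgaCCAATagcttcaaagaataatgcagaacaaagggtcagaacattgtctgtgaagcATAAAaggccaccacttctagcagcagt
Hba-x, chr11:32276350-32276599, plus strand: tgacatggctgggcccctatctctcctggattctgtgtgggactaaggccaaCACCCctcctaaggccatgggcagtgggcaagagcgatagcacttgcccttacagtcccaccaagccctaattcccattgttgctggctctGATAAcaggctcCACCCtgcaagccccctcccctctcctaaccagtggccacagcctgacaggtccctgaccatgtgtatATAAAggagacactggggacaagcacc
Hbb-bs, chr7:103827929-103828178, minus strand: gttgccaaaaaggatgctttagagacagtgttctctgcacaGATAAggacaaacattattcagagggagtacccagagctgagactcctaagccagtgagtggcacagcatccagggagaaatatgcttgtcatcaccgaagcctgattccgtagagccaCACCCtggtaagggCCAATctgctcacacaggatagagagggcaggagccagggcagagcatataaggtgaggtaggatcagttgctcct
Hba-a1, chr11:32283422-32283671, plus strand: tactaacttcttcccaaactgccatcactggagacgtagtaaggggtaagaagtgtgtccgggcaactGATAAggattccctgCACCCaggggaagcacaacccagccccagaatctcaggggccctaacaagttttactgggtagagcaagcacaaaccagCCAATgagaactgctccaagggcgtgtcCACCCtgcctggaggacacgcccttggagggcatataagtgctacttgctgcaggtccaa
All 4 windows held GATAA and CACCC, found in 22.6% and 52% of 32851 promoter windows of this length. CCAAT, found in 33.8% of them, was in each of these windows but that of *Hba-x*. ATAAA, in 37.3% of all windows, was 28 bases before the start of *Hbb-y* and 27 before that of *Hba-x* and was not in the windows of the adult pair. Both adult windows hold TATAAG near the start, which these letters do not match, so the lack of ATAAA there is not the lack of a TATA box. These matches describe letters in a window and are not evidence of binding.

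*Hbb-bh1* was listed at 21.4, 149 and 107 TPM for *Chd4-ECko* against 1.58, 6.76 and 2.28 TPM for *Brg1-ECko*, with control embryos at 12, 10.4 and 3.4 TPM. Every *Chd4-ECko* library lay above every *Brg1-ECko* and control library, and replicate 1 was the lowest of its group. The log2 difference between the mutants was 4.14 (95% interval 2.65 to 5.64, limma adjusted p = 0.489), and the means were 92.42 ± 64.9 and 3.538 ± 2.81 TPM (SD, n = 3). *Hba-x* was listed at 23.8, 208 and 162 TPM for *Chd4-ECko* against 12.8, 5.07 and 5.59 TPM for *Brg1-ECko*, again without overlap, and the log2 difference was 3.52 (2.03 to 5.02, adjusted p = 0.614). *Hbb-y* was listed at 30.5, 135 and 80.5 TPM for *Chd4-ECko* against 16, 11.1 and 4.14 TPM for *Brg1-ECko*, also without overlap, with a log2 difference of 2.79 (1.6 to 3.98, adjusted p = 0.614). Against control, where 6.17% of all genes rose in *Chd4-ECko*, all 3 genes rose there, by 3.04, 3.63 and 4.01 for *Hbb-bh1*, *Hba-x* and *Hbb-y* on the log2 scale (adjusted p = 0.0245, 0.0123 and 0.00455), while the *Brg1-ECko* differences were -1.11, 0.10 and 1.22 (adjusted p = 0.305, 0.938 and 0.171). Both comparisons use the same control libraries. The call of *Hbb-bh1* against control was lost with *Eif2s3y* as a covariate (adjusted p = 0.0969), with its groups fitted alone (0.11), without control replicate 2 or 3 (0.0552 and 0.0815) and without *Chd4-ECko* replicate 2 or 3 (0.0827 and 0.0837). That of *Hba-x* was lost when its groups were fitted alone (0.0843), and *Hbb-y* passed under every alternative that could be run. *Brg1/Chd4-ECdko* means were 32.43, 26.53 and 18.76 TPM for the same 3 genes, between the single mutants.

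Without *Chd4-ECko* replicate 1 the differences were 4.98, 4.49 and 3.37 for *Hbb-bh1*, *Hba-x* and *Hbb-y*, and each passed the test (adjusted p = 0.00644, 0.0052 and 0.035). The same genes passed between the mutants in LSECs with all libraries in, where *Hbb-bh1* averaged 407 TPM for *Chd4-ECko* and 3.15 TPM for *Brg1-ECko* (adjusted p = 3.37e-05), *Hba-x* 275 and 18.1 TPM (0.000845) and *Hbb-y* 182 and 27.9 TPM (0.0371). The *Chd4-ECko* level in non-EC cells was 22.7% of the LSEC level for *Hbb-bh1*, 47.8% for *Hba-x* and 45% for *Hbb-y*, so in *Chd4-ECko* these transcripts were more abundant in the CD146+ fraction. In *Brg1-ECko* the non-EC level was 112%, 43.3% and 37.3% of the LSEC level for the same 3 genes, so *Hbb-bh1* did not share that order there. *Eif2s3y* in LSECs was at 31.3, 34.9 and 0.52 TPM for *Chd4-ECko* and at 0.69, 1.73 and 19.9 TPM for *Brg1-ECko*, high and low in the same-numbered libraries as in non-EC cells. The methods describe separating both fractions from digested livers of single embryos, and the labels do not say which libraries came from the same embryo, so the LSEC values are not taken as independent of the non-EC values. Because the values come from bulk cells, more cells of a type and more RNA per cell cannot be told apart.

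**Figure D2:**
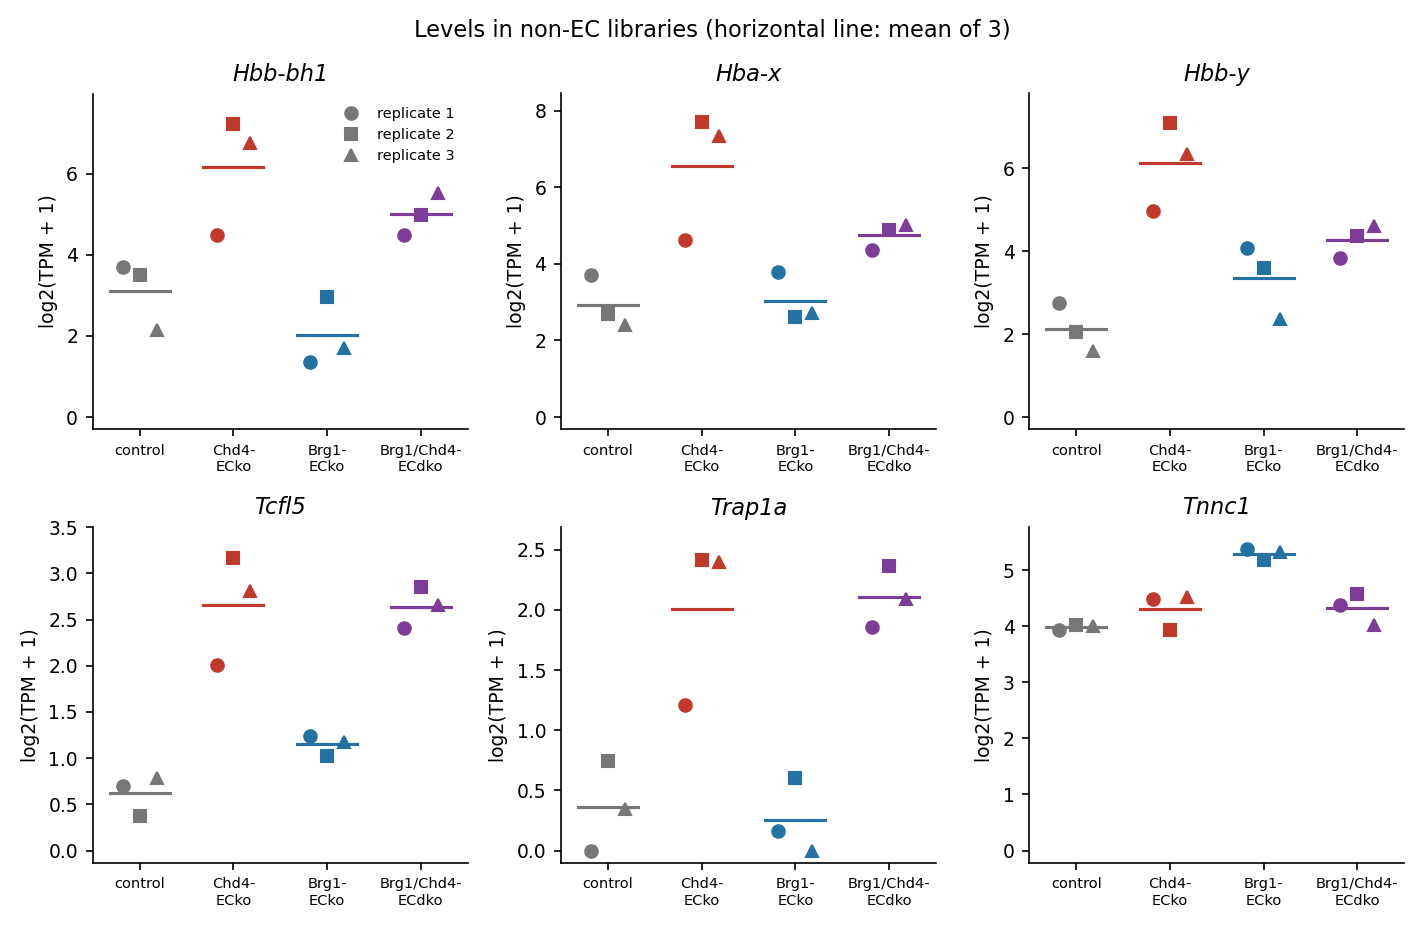
Levels of 6 genes in each non-EC library as log2(TPM + 1), with 1 point per embryo, marker shapes for the replicate numbers and a line at the mean of 3, for the 4 genotypes. In the 3 embryonic globins and in *Tcfl5* and *Trap1a* every *Chd4-ECko* point lies above every *Brg1-ECko* point, and *Chd4-ECko* replicate 1 is the lowest of its group, while in *Tnnc1* the *Brg1-ECko* points are the highest.

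The adult globins and other red cell genes had smaller differences with more overlap between the mutants. The summed TPM of all globins was 2760, 3920 and 11100 in *Chd4-ECko* compared with 1440, 3590 and 3220 in *Brg1-ECko*, and control libraries had 5300, 9520 and 2070, so the groups overlapped and *Chd4-ECko* replicate 3 was the highest. All 4 adult globins had a higher mean in *Chd4-ECko*, with a median log2 difference of 1.00 that was 0.414 to 1.41 under the alternatives. None had an unadjusted p under 0.05. *Hba-a1*, an adult alpha chain, was listed at 776, 1020 and 2790 TPM for *Chd4-ECko* against 366, 1170 and 948 TPM for *Brg1-ECko*. Reads of *Hba-a1* and *Hba-a2*, and of *Hbb-bs* and *Hbb-bt*, come from nearly identical copies and their split is uncertain. Of 30 red cell genes tested, 28 had a higher mean in *Chd4-ECko*, with a median of 0.42 beside -0.05 over all genes, and 5 (16.7%) had no overlap, beside 1.89% of all genes. *Car1*, the red cell carbonic anhydrase, was listed at 14.5, 22.9 and 15.5 TPM for *Chd4-ECko* against 6.21, 11.6 and 8.82 TPM for *Brg1-ECko*, without overlap (log2 difference 0.93, 0.43 to 1.43). It was also among the genes picked for the lowest p, so its lack of overlap follows largely from that choice. *Cpox*, a heme synthesis enzyme, was listed at 722, 880 and 1100 TPM and at 496, 691 and 601 TPM, also without overlap.

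Against control, 10 of the 30 red cell genes fell and none rose in *Brg1-ECko*, where 2.76% of all genes fell and 8.91% rose. In *Chd4-ECko* 4 fell and none rose, where 3.31% of all genes fell and 6.17% rose. With *Eif2s3y* as a covariate the falls were 2 in *Brg1-ECko* and 0 in *Chd4-ECko*, beside 0.245% and 0.172% of all genes. Leaving out 1 library gave 4, 3 and 11 falls in *Brg1-ECko* without control replicates 1 to 3 and 2, 8 and 5 without its own replicates 1 to 3, in fits that called 0.524% to 1.65% of all genes lower. In *Chd4-ECko* it gave 4 (13.3%) without its replicate 1, where 22.1% of all genes fell, and 1 without each of the other 5 libraries, where 0.262% to 1.05% fell. *Ermap*, an erythroid membrane protein, fell by 0.52 in *Chd4-ECko* and by 0.81 in *Brg1-ECko* (adjusted p = 0.0318 and 0.003), and *Tfrc*, the transferrin receptor that brings iron into erythroblasts, fell by 1.33 and 1.16 (0.0306 and 0.0382). The *Ermap* call in *Brg1-ECko* held in all 6 fits that left out a library, and that of *Tfrc* in none of them (0.0747 to 0.113). In *Chd4-ECko* each held in 1 of these fits, without its replicate 1 (0.0202 and 0.000594), and not in the others (up to 0.0827 and 0.0921). Between the mutants, *Tfrc* was listed at 374, 168 and 114 TPM for *Chd4-ECko* against 221, 186 and 250 TPM for *Brg1-ECko*, and these ranges overlap.

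*Tcfl5* and *Trap1a* were also among the 10 genes with the lowest p that were higher in *Chd4-ECko*. *Tcfl5* (chr2:180263529-180284556, minus strand), which encodes a helix-loop-helix transcription factor best known from the testis, was listed at 3.01, 7.96 and 6.01 TPM for *Chd4-ECko*, 1.37, 1.03 and 1.26 TPM for *Brg1-ECko* and, in control embryos, 0.617, 0.3 and 0.72 TPM. The *Chd4-ECko* libraries lay above both other groups, and the log2 difference between the mutants was 1.51 (0.94 to 2.08, adjusted p = 0.489). *Trap1a* (chrX:138234367-138238920, plus strand), a gene first described as a tumour rejection antigen and little used in adult tissue, was listed at 1.32, 4.34 and 4.27 TPM for *Chd4-ECko* against 0.117, 0.521 and 0 TPM for *Brg1-ECko*, a log2 difference of 1.76 (1.04 to 2.47). Both rose against control in *Chd4-ECko*, by 2.04 and 1.65 (adjusted p = 0.00425 and 0.0146, and 0.0132 and 0.0591 with *Eif2s3y* as a covariate). *Trap1a* did not pass with its groups fitted alone (0.0902), without control replicate 1 (0.0549) or without *Chd4-ECko* replicate 2 or 3 (0.0563 and 0.0564), and the *Brg1-ECko* values were 0.53 and -0.11 (adjusted p = 0.206 and 0.842). Their *Brg1/Chd4-ECdko* means, 5.286 and 3.346 TPM, were near the *Chd4-ECko* means of 5.661 ± 2.49 and 3.311 ± 1.72 TPM. In LSECs *Tcfl5* averaged 14.1 TPM for *Chd4-ECko* and 1.28 TPM for *Brg1-ECko* (adjusted p = 1.57e-05), and *Trap1a* 12.3 and 0.464 TPM (8.04e-05).

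The remaining genes of that group of 10 differed by less. *Fabp3*, a fatty acid carrier of heart and muscle, was listed at 2.65, 2.9 and 2.67 TPM for *Chd4-ECko* against 0.841, 1.3 and 0.424 TPM for *Brg1-ECko* (log2 difference 1.04, 0.56 to 1.51), and it rose against control in *Chd4-ECko* by 1.38 (adjusted p = 0.00734). *Prelid2* was listed at 35.4, 39.3 and 47.1 TPM and at 28.9, 27 and 19.9 TPM. It was the *Brg1-ECko* libraries that departed from control here, by -0.90 (adjusted p = 0.00388). The condensin subunit *Ncapd2*, used in packing mitotic chromosomes, was listed at 278, 319 and 406 TPM and at 186, 245 and 205 TPM. *Pik3c2g*, a lipid kinase gene, completed the group at low levels, with means of 1.632 ± 0.343 and 0.3827 ± 0.231 TPM.

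*Tnnc1* and *Arpin* were among the 10 genes with the lowest p that were lower in *Chd4-ECko*. *Tnnc1*, the troponin C of heart and slow muscle, was listed at 21.4, 14.2 and 21.8 TPM for *Chd4-ECko*, 40.3, 35.3 and 38.8 TPM for *Brg1-ECko* and, in control embryos, 14.3, 15.2 and 15.1 TPM. The *Brg1-ECko* libraries lay apart from both other groups, the log2 difference between the mutants was -0.98 (-1.36 to -0.61, limma adjusted p = 0.489) and *Tnnc1* rose against control in *Brg1-ECko* by 1.3 (adjusted p = 0.00154). *Arpin*, an inhibitor of the actin-branching ARP2/3 complex, was listed at 15.2, 13.8 and 13.6 TPM for *Chd4-ECko*, 19.2, 21.1 and 17.8 TPM for *Brg1-ECko* and, in control embryos, 7.38, 8.09 and 8.1 TPM. It rose in both mutants, by 0.78 and 1.2 (adjusted p = 0.00425 and 0.001). The mutants differed by -0.42 and did not overlap, which follows largely from the choice of *Arpin* by its low p. The *Arpin* call in *Chd4-ECko* was lost when its groups were fitted alone (0.0526). *Cttn*, which encodes the actin-binding protein cortactin, was at 144, 129 and 123 TPM for *Chd4-ECko* against 174, 181 and 155 TPM for *Brg1-ECko*, where it rose against control by 0.56 (adjusted p = 0.0031). *C1qtnf6*, *Rab3d*, *P3h3* and *Tamalin* had differences of -0.57, -0.45, -0.64 and -0.80. Of these, all but *Rab3d* had higher means in LSECs in both mutants, as did *Arpin* and *Cttn*. *C1qtnf6* averaged 13.5 and 15.9 TPM in LSECs of *Chd4-ECko* and *Brg1-ECko*, against 4.293 and 6.827 TPM in non-EC cells. For *P3h3* and *Tamalin* the non-EC level was 4.06% and 4.02% of the LSEC level in *Chd4-ECko* and 7.47% and 10.3% in *Brg1-ECko*. *Rpl39l*, a ribosomal protein variant gene, was listed at 0.188 to 0.378 TPM for *Chd4-ECko* against 1.26 to 1.85 TPM for *Brg1-ECko*.

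*Hapln1* and *Cnrip1* completed the 10. *Hapln1*, a link protein of hyaluronan matrix, was listed at 0.791, 0.835 and 0.495 TPM for *Chd4-ECko* against 2.71, 6.33 and 3.91 TPM for *Brg1-ECko*, and *Cnrip1*, a cannabinoid receptor interacting protein, at 1.92, 3.15 and 2.01 TPM and at 5.31, 21.2 and 11.8 TPM. *Brg1-ECko* replicate 2 was the highest of these 6 libraries for both, and *Brg1/Chd4-ECdko* replicate 2 was higher for *Hapln1*, at 15.1 TPM, and lower for *Cnrip1*, at 18 TPM. These genes are more abundant in LSECs, and their non-EC level was 3.49% and 6.42% of the LSEC level in *Chd4-ECko* but 35.9% and 35.8% in *Brg1-ECko*. The endothelial receptor *Kdr* was also highest there among the 6, at 3.08, 4.80 and 3.37 TPM for *Chd4-ECko* against 6.47, 20.0 and 7.19 TPM for *Brg1-ECko* (log2 difference -1.21, -2.00 to -0.42), and so was *Tie1* (-0.80, -1.45 to -0.15). *Cdh5* was not, at 13.4, 8.55 and 9.91 TPM and 11.2, 7.41 and 13.2 TPM (log2 difference 0.01), and *Pecam1* had a difference of 0.08. *Stab1* was higher in *Chd4-ECko* without overlap (0.34, -0.12 to 0.81). Over the 11 of 18 endothelial markers that could be tested, 5 were higher and 6 lower in *Chd4-ECko*, with a median of -0.37. That median was -0.528 to -0.0458 under the alternatives. The part of carried-over endothelial RNA in these results was not tested.

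Hepatic genes rose against the shared control libraries in both mutants. Of 33 hepatoblast plasma protein genes tested, 24 rose in *Chd4-ECko*, beside 6.17% of all genes, and 27 rose in *Brg1-ECko*, beside 8.91%. The medians were 0.75 and 0.88 on the log2 scale, and 31 and 32 of the 33 had a positive difference. None fell past the adjusted test, beside 3.31% and 2.76% of all genes. With *Eif2s3y* as a covariate 22 and 27 rose, and leaving out 1 library at a time gave 16 (without control replicate 1) to 25 and 20 to 28. These fits called 2.45% to 15.5% of all genes higher in *Chd4-ECko* and 4.13% to 8.47% in *Brg1-ECko*, and those with the covariate 2.92% and 3.24%. The 13 mitochondrially encoded genes had medians of -0.89 and -0.70 against control, with none past the test, and with TPM rescaled without globin and mitochondrial genes 21 and 25 plasma protein genes rose. The part of that shift in TPM was not tested beyond this rescaling, and the share of all genes called after it is not given here. *Afp*, the fetal counterpart of albumin, was listed at 15779, 11340 and 11766 TPM for *Chd4-ECko*, 16602, 10541 and 13985 TPM for *Brg1-ECko* and, in control embryos, 7808, 7857 and 8506 TPM. Both mutants lay above control without overlap, the mutants overlapped each other, and their log2 difference was -0.07 with an interval of -0.48 to 0.33. *Afp* rose by 0.67 in *Chd4-ECko* and by 0.74 in *Brg1-ECko* (adjusted p = 0.0461 and 0.0245), and each call passed in 1 of the 6 fits that left out a library, without *Chd4-ECko* replicate 1 (0.0375, others up to 0.121) and without *Brg1-ECko* replicate 2 (0.00963, others up to 0.103). Neither passed with *Eif2s3y* as a covariate (0.0591 and 0.0507), and with the rescaled TPM the values were 0.0571 and 0.0356. *Trf*, the iron carrier transferrin, rose by 0.91 and 0.89 (0.0161 and 0.0106, and 0.057 without control replicate 1 and 0.0511 without *Brg1-ECko* replicate 1), and the mutants differed by 0.01 (-0.39 to 0.41). *Itih4*, an acute phase plasma protein, was listed at 44.1, 38.7 and 50.4 TPM for *Chd4-ECko*, 53.4, 42 and 58.9 TPM for *Brg1-ECko* and, in control embryos, 15.1, 14 and 18.2 TPM, a rise of 1.44 and 1.64 (0.0033 and 0.001) with a difference between the mutants of -0.20 (-0.52 to 0.11).

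Within that shared rise the *Brg1-ECko* means were usually the larger. Of the 33 plasma protein genes, 30 had a lower mean in *Chd4-ECko*, with a median of -0.14 beside -0.05 over all genes, and 2 (6.06%) had no overlap, beside 4.22% of all genes. One of these was *Apoa1*, the main protein of high-density lipoprotein, at 2642, 2451 and 2675 TPM for *Chd4-ECko* against 3216, 2781 and 3126 TPM for *Brg1-ECko* (log2 difference -0.23, -0.48 to 0.02), and *Apoa2* followed it at -0.22 (-0.45 to 0.01). The interval lay within ±1 for 30 of the 33 genes and within ±0.5 for 19. *Alb*, the main plasma protein, passed against control in *Brg1-ECko* (0.74, adjusted p = 0.0435, which held in 1 of the 6 fits that left out a library, without *Brg1-ECko* replicate 2, at 0.0221 and otherwise up to 0.155, and was 0.062 with the rescaled TPM) and was 0.58 higher in *Chd4-ECko* with an adjusted p of 0.0885, but the difference between the mutants was -0.17 (-0.63 to 0.30) and did not pass. The summed TPM of the list was 53860, 42150 and 41740 in *Chd4-ECko* compared with 57780, 40570 and 52440 in *Brg1-ECko*, and control libraries had 26560, 26770 and 29750.

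The other hepatic lists had medians of the same sign. Of 18 hepatoblast transcription factor and epithelial genes, 8 (44.4%) rose in *Chd4-ECko* compared with 9 (50%) in *Brg1-ECko*, beside 6.17% and 8.91% of all genes, with medians of 0.66 and 0.77, and 16 had a lower mean in *Chd4-ECko* than in *Brg1-ECko* (median -0.14). *Hnf4a*, a master regulator of hepatocyte genes, rose by 0.81 and 0.96 (adjusted p = 0.0318 and 0.0105, but 0.0579 and 0.0429 with *Eif2s3y* as a covariate), *Foxa3*, a pioneer factor of the liver, by 0.84 and 0.97 (0.00425 and 0.00128) and *Dlk1*, a surface marker of hepatoblasts, by 0.84 and 0.95 (0.00734 and 0.002). The *Hnf4a* call held in *Chd4-ECko* without control replicate 3 or *Chd4-ECko* replicate 1 but not without any other single library (up to 0.0858), and was lost in *Brg1-ECko* without its replicate 1 (0.0511). *Krt18*, an epithelial keratin, rose by 0.81 and 1.05 and was the single gene of this list whose mutant libraries did not overlap (-0.24, -0.50 to 0.02). Of 14 hepatic enzymes, 5 (35.7%) rose in *Chd4-ECko* compared with 8 (57.1%) in *Brg1-ECko*, beside the same shares of all genes, and 11 had a lower mean in *Chd4-ECko* (median -0.17). Cholesterol synthesis, another hepatic function, rose in 15 of 24 genes (62.5%) in *Chd4-ECko* compared with 17 (70.8%) in *Brg1-ECko*. These counts stand again beside 6.17% and 8.91% of all genes, with medians of 0.51 and 0.60. The counts became 11 and 8 with *Eif2s3y* as a covariate and 7 and 11 without control replicate 2. Those fits called smaller shares of all genes higher than the main fit, within the shares given with the plasma protein genes. The counts of the enzymes became 4 and 4 with the *Eif2s3y* covariate. They became 3 without control replicate 1 or 2 or *Chd4-ECko* replicate 3, and 4 without *Brg1-ECko* replicate 1 or 3. These fits, too, called smaller shares of all genes higher than the main fit. *Fdps*, a farnesyl diphosphate synthase, was listed at 414, 458 and 534 TPM for *Chd4-ECko*, 517, 452 and 426 TPM for *Brg1-ECko* and, in control embryos, 253, 260 and 266 TPM, and the mutants differed by 0.01 (-0.23 to 0.25).

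Genes changed in *Brg1/Chd4-ECdko* embryos, whose libraries are not among the 6 compared, gave a further list. Its calls come from a fit that shares the control libraries, the filter and the residual variance with the single mutants, so it is not independent of them. In *Brg1/Chd4-ECdko* 69 genes (0.565%) were higher than control and 2 (0.0164%) were lower. For the 69 genes the median log2 change against control was 0.78 in *Brg1/Chd4-ECdko* itself, 0.92 in *Brg1-ECko* and 0.85 in *Chd4-ECko*. Their median difference between the single mutants was -0.05, with quartiles of -0.20 and 0.03, beside -0.05 with quartiles of -0.18 and 0.05 over all genes. At an unadjusted p under 0.05, 6 (8.7%) were higher and 5 (7.25%) lower in *Chd4-ECko* than in *Brg1-ECko*, beside 1.1% and 1.79% of all genes, and none passed the adjusted test. The interval of that difference lay within ±1 for 64 of them (92.8%) and within ±0.5 for 44 (63.8%), beside 89.5% and 52.1% of all genes.

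**Figure D3:**
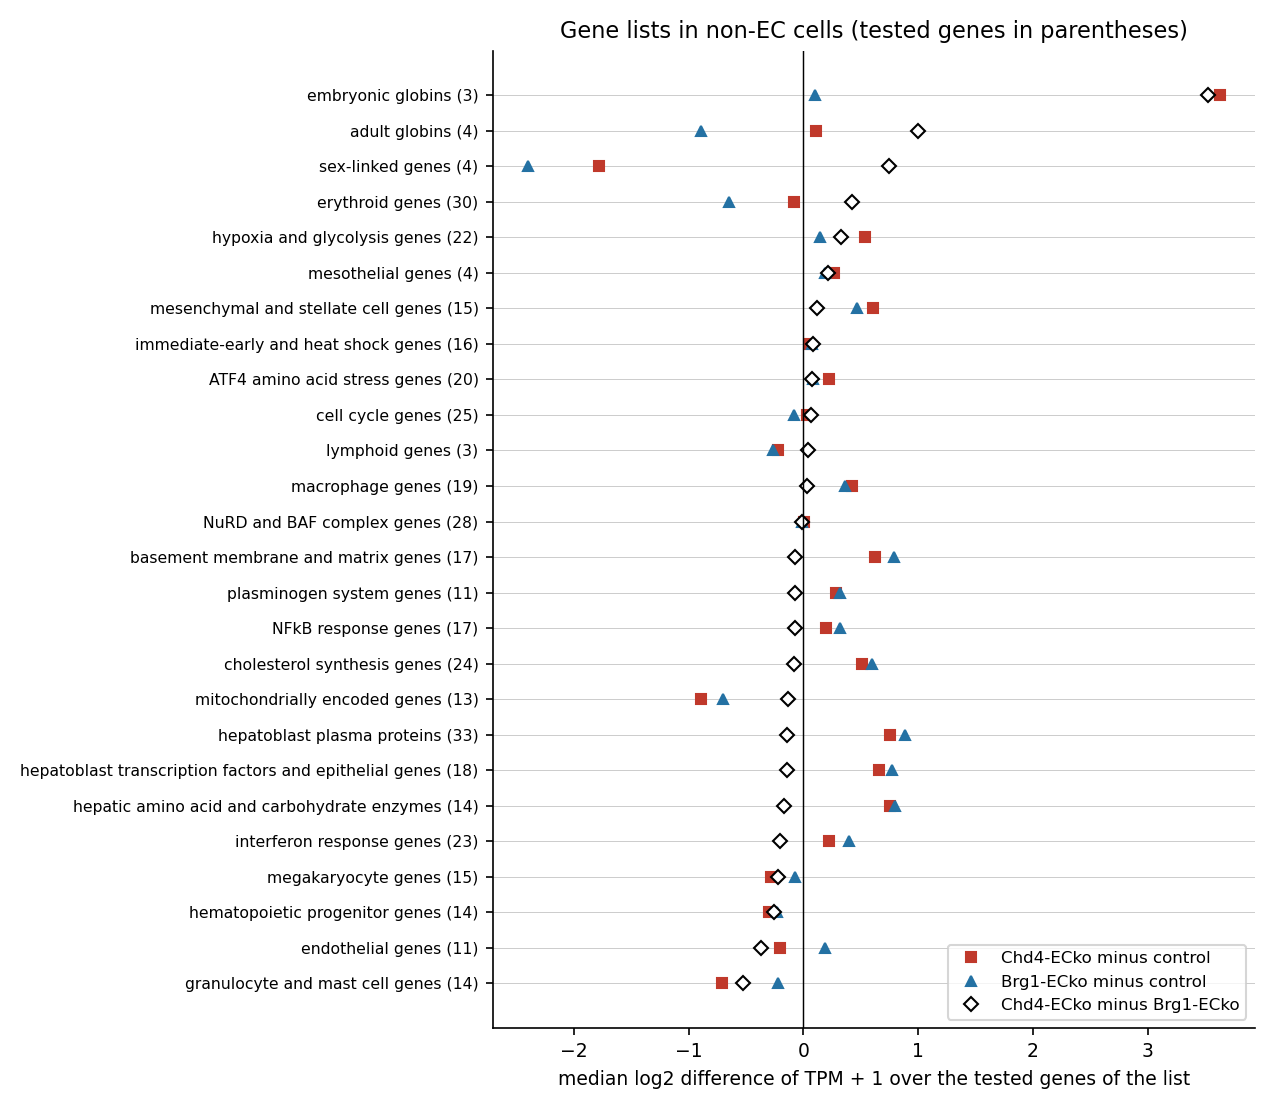
Median log2 difference of each of 26 gene lists on the log2(TPM + 1) scale, for *Chd4-ECko* minus control, *Brg1-ECko* minus control and *Chd4-ECko* minus *Brg1-ECko*, with the number of genes tested. The hepatic lists lie at 0.66 to 0.88 against control in both mutants and at -0.17 to -0.14 between them, and the embryonic globins lie at 3.63 in *Chd4-ECko*, 0.10 in *Brg1-ECko* and 3.52 between them.

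Hypoxia and glycolysis genes had higher means in *Chd4-ECko*. Of 22 tested, 20 had a higher mean, with a median of 0.32 beside -0.05 over all genes. At an unadjusted p under 0.05, 8 were higher and 0 lower, beside 1.1% and 1.79% of all genes. The libraries did not overlap for 5 (22.7%) that were higher, beside 1.89% of all genes. *Bnip3*, a HIF target that acts in mitophagy, was listed at 114, 119 and 114 TPM for *Chd4-ECko*, 74.2, 76.3 and 60.1 TPM for *Brg1-ECko* and, in control embryos, 67.5, 78.5 and 61.5 TPM. The *Chd4-ECko* libraries lay above both of these groups (log2 difference between the mutants 0.72, 0.27 to 1.18), *Brg1/Chd4-ECdko* libraries were at 132, 196 and 96.4 TPM, and *Bnip3* rose against control in *Chd4-ECko* by 0.75 (adjusted p = 0.0467) with a *Brg1-ECko* value of 0.02. *Egln1*, the prolyl hydroxylase that marks HIF for decay, was listed at 51.3, 53.8 and 53.2 TPM for *Chd4-ECko* against 39.5, 41.1 and 41.3 TPM for *Brg1-ECko*, without overlap (0.37, 0.13 to 0.60), and rose in *Chd4-ECko* by 0.60 (adjusted p = 0.0102), with a *Brg1/Chd4-ECdko* mean of 54.6 TPM beside 52.79 TPM in *Chd4-ECko*. The *Bnip3* call was lost with *Eif2s3y* as a covariate (adjusted p = 0.149) and that of *Egln1* was not (0.037), although it missed with its groups fitted alone (0.0553). *Bnip3* passed in 1 of the 6 fits that left out a library, without *Chd4-ECko* replicate 1 (0.0274), and the others gave up to 0.135.

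Genes of glucose use had more spread. *Pdk1*, a kinase that keeps pyruvate out of mitochondria, was listed at 80.6, 74.1 and 77.7 TPM for *Chd4-ECko* against 56.8, 64.2 and 57.7 TPM for *Brg1-ECko*, but the control libraries, at 79.2, 90.4 and 73.5 TPM, were with *Chd4-ECko*, and *Pdk1* fell in *Brg1-ECko* by 0.43 (adjusted p = 0.0167), a call lost with *Eif2s3y* as a covariate (0.127) and without control replicate 2 or *Brg1-ECko* replicate 1 or 3 (up to 0.0714). *Slc2a1*, the glucose transporter GLUT1, was listed at 58.8, 67.0 and 95.4 TPM and at 48.1, 56.1 and 44.4 TPM, without overlap. *Ldha*, which makes lactate from pyruvate, was listed at 1120, 1420 and 1740 TPM and at 1170, 1210 and 979 TPM, with overlap, and rose against control in *Chd4-ECko* by 0.52 (adjusted p = 0.0494), but 0.178 with that covariate and, in the fits that left out a library, 0.0025 without *Chd4-ECko* replicate 1 and up to 0.143 in the others, none of which passed. Against control, 6 of the 22 (27.3%) rose and none fell in *Chd4-ECko* (median 0.54), beside 6.17% and 3.31% of all genes. In *Brg1-ECko* 1 (4.55%) rose and 1 (4.55%) fell (median 0.14), beside 8.91% and 2.76% of all genes. The 6 became 2 with *Eif2s3y* as a covariate or without any one of control replicates 2 and 3 and *Chd4-ECko* replicates 2 and 3, 3 without control replicate 1, and 12 (54.5%) without *Chd4-ECko* replicate 1. The share of all genes that rose was 15.5% in that last fit, 2.92% with the covariate and 2.45% to 3.35% without the other libraries. The summed TPM of the list was 5571, 6795 and 8244 in *Chd4-ECko* against 5574, 5868 and 4604 in *Brg1-ECko*, and *Chd4-ECko* replicate 3, which was also the highest of these 6 in globins, was the highest. The median deviation of the list from its own mean was 0.03, 0.26 and 0.44 for *Chd4-ECko* replicates 1 to 3, whose mitochondrially encoded share was 7.37%, 3.43% and 2.33%, and -0.17, 0.02 and -0.26 for the *Brg1-ECko* replicates, at 5.24%, 3.04% and 5.51%. In both mutants the list was thus higher where that share was lower. Red cells also use glycolysis genes, and the parts of the red cell content and of the mitochondrial share in this difference were not tested.

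**Figure D4:**
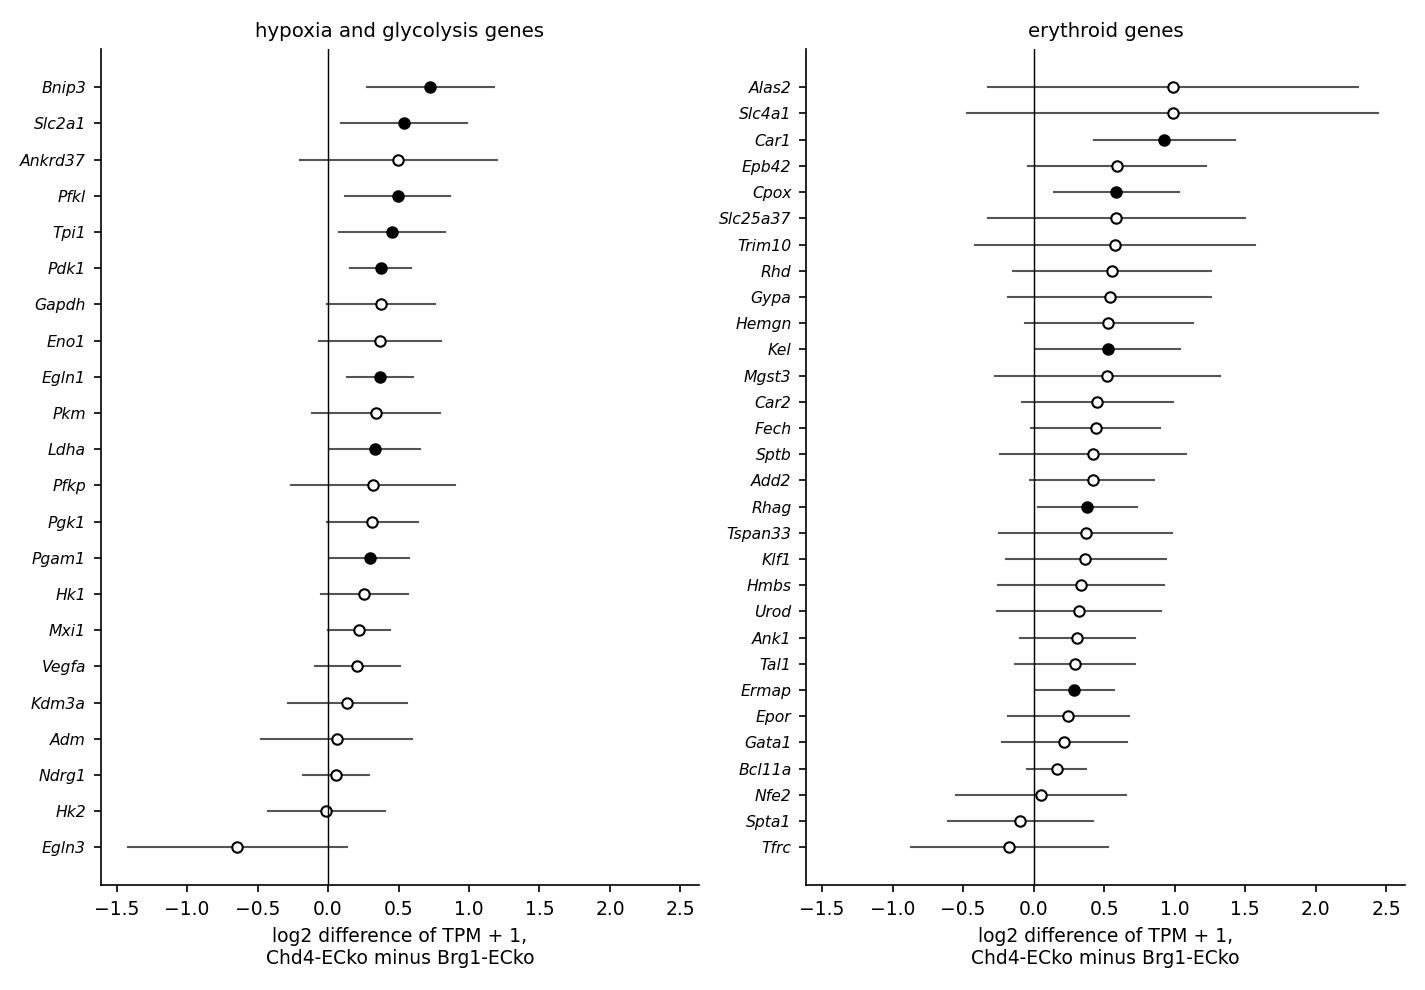
Log2 difference of *Chd4-ECko* minus *Brg1-ECko* on the log2(TPM + 1) scale for each tested gene of the hypoxia and glycolysis list (left) and the erythroid list (right), with the limma estimate as a point and its 95% interval as a line. Filled points mark an unadjusted p under 0.05, which 8 of 22 and 5 of 30 genes had, and all of these lie to the right of 0. Over all genes tested, 1.1% were higher and 1.79% lower at that p.

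**Figure D5:**
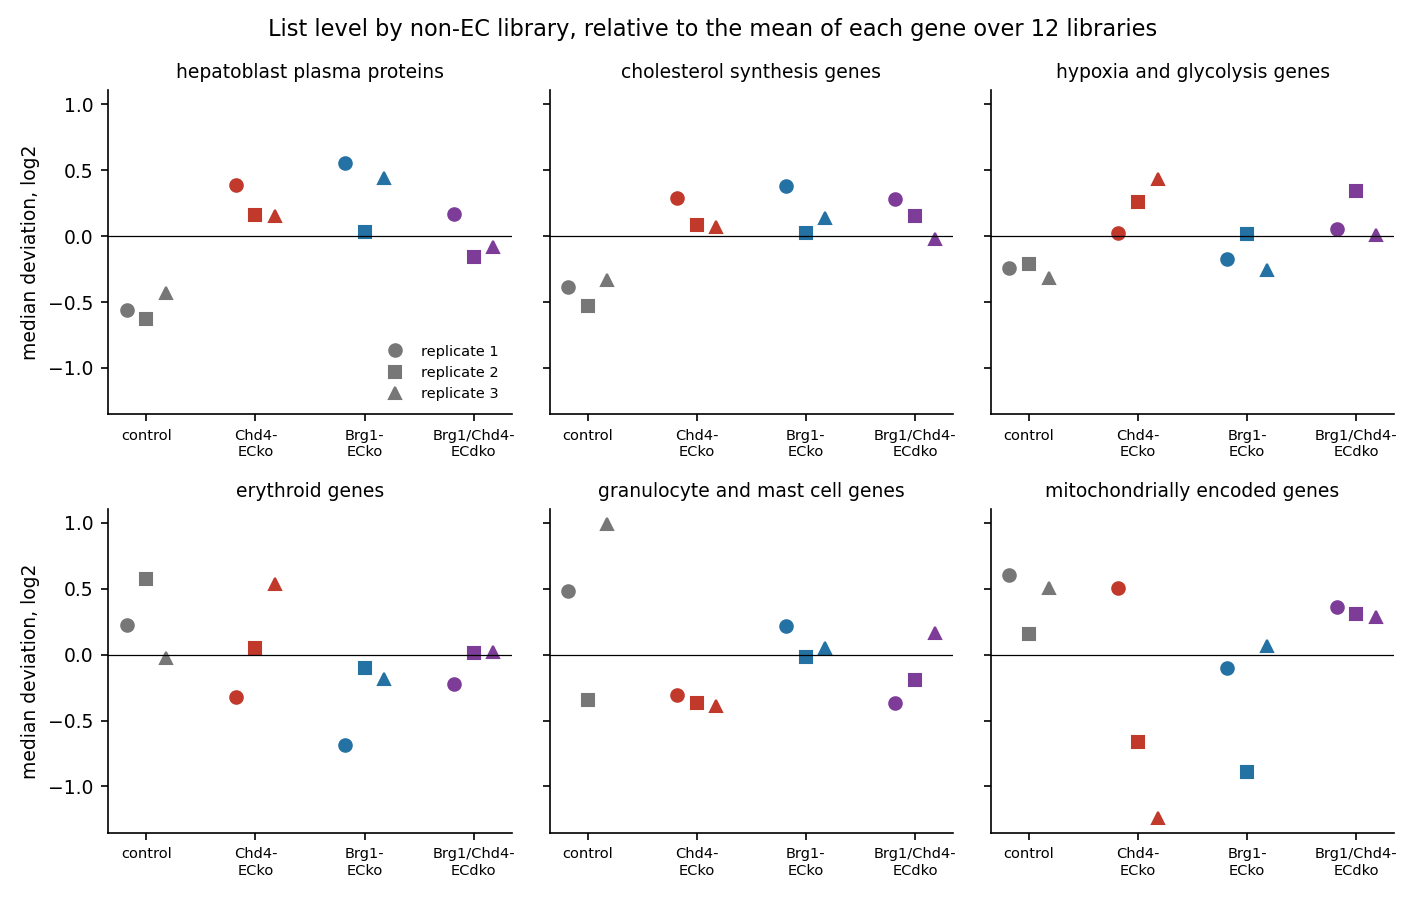
Median deviation of the genes of a list from their own mean over the 12 non-EC libraries, on the log2(TPM + 1) scale, with 1 point per embryo in 6 lists. *Chd4-ECko* points of the hypoxia and glycolysis list lie at 0.03 to 0.44 and *Brg1-ECko* points at -0.26 to 0.02, and for the granulocyte and mast cell list the *Chd4-ECko* points lie at -0.39 to -0.31 and the *Brg1-ECko* points at -0.01 to 0.22.

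Granulocyte, mast cell and progenitor genes had lower means in *Chd4-ECko*. All 14 granulocyte and mast cell genes tested were lower than in *Brg1-ECko*, with a median of -0.53, none with an unadjusted p under 0.05, and 5 (35.7%) did not overlap, beside 4.22% of all genes. *Mpo*, the neutrophil enzyme myeloperoxidase, was listed at 132, 148 and 136 TPM for *Chd4-ECko* against 156, 256 and 153 TPM for *Brg1-ECko*, without overlap, while control embryos were at 288, 128 and 318 TPM. The other 4 were *Csf3r*, *Elane*, *Cebpe* and *Prtn3*, the receptor, proteases and transcription factor of granulocytes. *Cpa3*, a mast cell protease, fell against control in *Chd4-ECko* by 1.76 (adjusted p = 0.0291), a call lost with *Eif2s3y* as a covariate (0.111) and without control replicate 1 or 3 or *Chd4-ECko* replicate 2 or 3 (up to 0.0906). Of 14 progenitor genes, 11 had a lower mean in *Chd4-ECko* (median -0.26). *Cd48*, a surface protein of progenitors and leukocytes, was listed at 5.11, 3.58 and 2.51 TPM for *Chd4-ECko*, 6.05, 9.55 and 6.32 TPM for *Brg1-ECko* and, in control embryos, 10.8, 7.74 and 7.82 TPM, and it fell in *Chd4-ECko* by 1.07 (adjusted p = 0.0233). This call was lost with *Eif2s3y* as a covariate (0.083), with its groups fitted alone (0.101) and in 5 of the 6 fits that left out a library (0.0503 to 0.0823), and held without *Chd4-ECko* replicate 1 (0.00263).

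Lists of other resident cell types had medians between -0.22 and 0.21. Macrophage genes had 10 of 19 higher in *Chd4-ECko* (median 0.03), megakaryocyte genes 2 of 15 (-0.22), mesenchymal and stellate cell genes 10 of 15 (0.12), and none of these genes had an adjusted p under 0.05. The 3 lymphoid and 4 mesothelial genes tested had medians of 0.04 and 0.21. The 4 sex-linked genes had a median of 0.75, which reflects the sexes of the embryos.

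Inflammatory genes that the study follows were low in these non-EC cells or had small differences between the mutants. In whole livers at a later stage, the study reported higher *Tnf*, *Il6*, *Il1b* and *Icam1* transcripts in *Chd4-ECko* than in controls. It also saw more ICAM1 protein there on endothelial cells and hepatoblasts. Those results are of another age and another material, and the values here do not test them. *Tnf*, *Il1b* and *Il6* did not reach the filter, and *Tnf* was listed at 0.0951, 0.52 and 0.48 TPM for *Chd4-ECko* against 0.675, 0.562 and 0.639 TPM for *Brg1-ECko*. *Icam1*, an adhesion molecule for leukocytes, was listed at 21.5, 21.3 and 19.9 TPM for *Chd4-ECko*, 22.9, 25.1 and 23.1 TPM for *Brg1-ECko* and, in control embryos, 16.2, 7.26 and 15.8 TPM. The *Brg1-ECko* libraries were all above the *Chd4-ECko* libraries by a small margin, with a log2 difference of -0.17 (-0.68 to 0.33), and *Icam1* passed against control in *Brg1-ECko* (0.89, adjusted p = 0.0301) but not in *Chd4-ECko* (0.71, 0.0666). The *Icam1* call was lost with *Eif2s3y* as a covariate (0.175), with its groups fitted alone and without any one of the *Brg1-ECko* replicates (up to 0.0852). *Vcam1* and *Rela*, the p65 subunit of NFκB, had differences of -0.28 and -0.03. Of 17 NFκB response genes, 12 had a lower mean in *Chd4-ECko* (median -0.07), but under quantile normalization the median was 0.03. Of 23 interferon response genes, 22 had a lower mean in *Chd4-ECko* (median -0.20) and 4 (17.4%) had no overlap, beside 4.22% of all genes, and under quantile normalization, which moved the median of all genes to 0.01, 17 had a lower mean. Against control, 1 of the 23 rose and 1 fell in *Chd4-ECko*, beside 6.17% and 3.31% of all genes. In *Brg1-ECko* 3 rose and 0 fell, beside 8.91% and 2.76%. *Usp18*, a brake on interferon signalling, rose against control in both mutants, by 1.00 and 1.20 (adjusted p = 0.006 and 0.00133). *Ifit2* fell in *Chd4-ECko* by 0.98 (adjusted p = 0.0181), with a *Brg1-ECko* value of -0.48 (0.147), and its call was not followed under the alternatives.

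Plasminogen activation genes were measured because plasmin is the protease the study links to liver breakdown. *Plaur*, the urokinase receptor, was listed at 3.67, 3.21 and 2.88 TPM for *Chd4-ECko*, 5.87, 4.5 and 4.39 TPM for *Brg1-ECko* and, in control embryos, 3.95, 2.44 and 5.12 TPM. The *Brg1-ECko* libraries were all above the *Chd4-ECko* libraries, with a log2 difference of -0.47 (-0.91 to -0.03, adjusted p = 0.969), and the exact permutation test gave p = 0.1. In LSECs the order was the opposite, at 14.3 and 6.09 TPM (adjusted p = 0.00864). *Plg*, the plasmin precursor made by hepatoblasts, rose in both mutants by 0.75 and 0.88 (0.0263 and 0.0087), and the mutants differed by -0.13 (-0.51 to 0.25). The *Plg* call in *Chd4-ECko* was lost without any one of the control replicates or *Chd4-ECko* replicate 2 (up to 0.0774). *Plat* and *Plau*, the activators, differed by 0.37 (-0.02 to 0.76) and 0.10. Over the 11 genes of this list 5 were higher and 6 lower in *Chd4-ECko*, with a median of -0.07 that was 0.0036 under quantile normalization. Among 17 basement membrane and matrix genes, 6 (35.3%) rose in *Chd4-ECko* compared with 9 (52.9%) in *Brg1-ECko*, beside 6.17% and 8.91% of all genes, and 13 had a lower mean in *Chd4-ECko* (median -0.07). The calls against control became 5 and 4 with *Eif2s3y* as a covariate and 2 and 3 without control replicate 2. They became 2 without *Chd4-ECko* replicate 3, 5 without control replicate 3 in *Brg1-ECko*, and 3 and 4 without *Brg1-ECko* replicates 1 and 3. All these fits called smaller shares of all genes higher than the main fit, within the shares given with the plasma protein genes. *Col4a1*, a collagen of the basement membrane, was listed at 7.32, 8.46 and 11.1 TPM for *Chd4-ECko* against 16.3, 18.8 and 16.1 TPM for *Brg1-ECko*, without overlap (-0.87, -1.45 to -0.30), and rose against control in *Brg1-ECko* by 0.95 (adjusted p = 0.0391). That call was lost with *Eif2s3y* as a covariate (0.355), under quantile normalization (0.0524), with no filter on low values (0.0623) and in 5 of the 6 fits that left out a library (0.0877 to 0.121), and held without control replicate 1 (0.0223). Its non-EC level was 2.64% and 5.22% of the LSEC level in the mutants, beside the endothelial values above.

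Cell cycle, stress and chromatin lists had medians between -0.13 and 0.09. Of 25 cell cycle genes, 16 had a higher mean in *Chd4-ECko* (median 0.07). *Pcna*, the replication clamp, was listed at 534, 593 and 579 TPM for *Chd4-ECko* against 480, 459 and 455 TPM for *Brg1-ECko*, without overlap, and fell against control in *Brg1-ECko* by 0.54 (adjusted p = 0.00983), and *Cdkn1c*, a cell cycle inhibitor also made by hepatoblasts, rose in both mutants by 0.88 and 1.07 (0.00635 and 0.00133). The medians were 0.08 for 20 ATF4 stress genes, 0.09 for 16 immediate-early and heat shock genes, -0.01 for 28 NuRD and BAF subunit genes and -0.13 for 13 mitochondrially encoded genes. *Ndrg1*, a stress-induced gene of the hypoxia response, was among the genes with the lowest p against control and overlapped in the mutants, at 101, 104 and 113 TPM for *Chd4-ECko* against 113, 94.3 and 99.2 TPM for *Brg1-ECko*, beside 51, 47.9 and 55.6 TPM in control libraries.

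In LSECs, the same contrast called 58 of 13444 genes (0.431%), 53 of them higher in *Chd4-ECko*. The targeted genes did not pass there. *Chd4* averaged 215 TPM for *Chd4-ECko* and 282 TPM for *Brg1-ECko* (log2 difference -0.39, limma adjusted p = 0.426). *Smarca4* averaged 127 and 132 TPM (-0.05, 0.948). Each mutant also had a floxed allele of the other gene, and per-gene values do not resolve the floxed exons. By quantitative PCR of LSECs isolated with another marker, the study reported both transcripts reduced in the relevant mutants. The values here therefore do not measure how far either gene was deleted. A test of whether the difference between the mutants itself differed between non-EC cells and LSECs called 14 of 13775 genes (0.102%), all lower in non-EC cells, among them *Plaur* (-1.58, adjusted p = 0.00651) and *Car1* (-2.80, 0.0432). The test takes the 24 libraries as independent. With same-numbered libraries of a genotype taken as fractions of 1 embryo, a block added after the data were seen, 15 genes passed, 12 of them among the 14, and *Plaur* and *Car1* had an adjusted p of 0.0469 each. None of the embryonic globins passed the test without that block. *Septin1*, a cytoskeletal GTPase, was listed in LSECs at 66.9, 83.8 and 73.6 TPM for *Chd4-ECko* against 16, 17 and 19.8 TPM for *Brg1-ECko*, and in non-EC cells at 25.4, 40.3 and 34.9 TPM and 23.7, 27.9 and 21.5 TPM, where the groups overlapped. Most of the 14 were listed near 0 in every non-EC library.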

How the data were processed

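RNA-Seq of CD146+ LSECs and non-EC cells from E12.5 livers was compared in 24 libraries of 8 groups of 3. Per the study's methods, the authors isolated cells with transcription inhibitors, trimmed repeated guanines, used CLC Genomics Workbench for alignment (GRCm39/mm39) and deposited TPM values per gene without counts, so the sequencing depth behind a value is unknown and TPM sums to 1e+06 in each library. The 8 deposited group-mean columns were not used.

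TPM values were analysed as log2(TPM + 1), and fold changes are on that scale, which understates changes of low genes. A gene was tested where 3 or more of the fitted libraries reached 1 TPM. limma 3.58.1 (R 4.3.3) was fitted to all 12 non-EC libraries with 1 mean per genotype, a variance trend and Benjamini-Hochberg adjustment over all genes, two-sided. LSECs were fitted in the same way, and the difference between fractions was tested over all 24 libraries. P-values measure the spread between single embryos. A single gene was also tested by an exact permutation test, whose smallest p for 3 against 3 is 0.1. Scripts were tested on simulated data, and figures were drawn with matplotlib 3.10.9.

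The genes named were *Chd4*, *Smarca4*, the 10 with the lowest p in each direction, the most abundant members of 26 lists, genes that the study names and the 5 with the lowest p in each other comparison. Further list members, and the genes called without a library, were named after their values were seen. The comparison and the lists were chosen with earlier results of these data known. Not analysed here were *G6pc1*, *Vpreb1*, *Xist*, *Ddit3* and *Aldoa*. Alternatives were a pseudocount of 0.1, no filter, a minimum mean of 5 TPM, quantile normalization, TPM rescaled without globin and mitochondrial genes, no variance trend, a replicate block, *Eif2s3y* as a covariate, a fit of only the compared groups and leaving out each library in turn. A block by embryo for the difference between fractions was added after the data were seen.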

Additional observations from a re-analysis of the deposited data

Results flagged for a closer look

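The difference between *Chd4-ECko* and *Brg1-ECko* was tested for a change between non-EC cells and LSECs, and 14 genes passed (limma interaction, log2 scale, non-EC minus LSEC difference, n = 3 per group). The fit takes the libraries of both fractions as independent, although same-numbered libraries may come from the same embryo, and with that pairing as a block *Ly6h* (0.0951) and *AU021092* (0.128) no longer passed. *Cyp4b1* had a value of -2.29 (adjusted p = 1.8e-05), and it was listed in LSECs at 6.54, 7.34 and 4.72 TPM for *Chd4-ECko* against 0.55, 0.388 and 0.661 TPM for *Brg1-ECko* but at no more than 0.17 TPM in the non-EC libraries of both mutants. *Sncg* had a value of -2.04 (0.000178), *Adam23* -1.78 (0.000287) and *Prl3b1* -1.96 (0.000276), and they too were under 1 TPM in those non-EC libraries, with *Prl3b1* listed at 0 in all of them. For such genes the non-EC side holds almost no signal, so the interaction gives the LSEC difference alone. *Prl3b1*, with an LSEC mean of 3.24 TPM for *Chd4-ECko* and at most 0.242 TPM in the other LSEC groups, passed the filter only through that group, so its p is no independent support.

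*Septin1* had a value of -1.6 (adjusted p = 0.000276) and is expressed in both fractions, with LSEC means of 74.8 TPM for *Chd4-ECko* against 17.6 TPM for *Brg1-ECko* and non-EC means of 33.56 ± 7.56 against 24.35 ± 3.24 TPM (SD, n = 3). *Plaur*, the urokinase receptor, had a value of -1.58 (0.00651), and its *Chd4-ECko* libraries were above *Brg1-ECko* in LSECs and below them in non-EC cells. *Car1*, a red cell carbonic anhydrase, had a value of -2.80 (0.0432), and it was higher in *Chd4-ECko* in both fractions, with LSEC means of 32.4 against 1.4 TPM and non-EC means of 17.64 ± 4.61 against 8.859 ± 2.67 TPM. The remaining genes were *Thy1* at -1.97 (0.000944), *Sh2d2a* at -1.28 (0.00254), *Cpa1* at -1.80 (0.00262), *Nefh* at -1.72 (0.0114), *Ly6h* at -1.23 (0.0211), *AU021092* at -1.32 (0.0262) and *Apobec2* at -1.79 (0.0417).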

How the results depend on the processing

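Between *Chd4-ECko* and *Brg1-ECko* the count of genes with an adjusted p under 0.05 was 2 with no filter on low values (*Gtsf1l* and *Gzmf*), 0 to 9 when 1 library was left out, with 9 without *Chd4-ECko* replicate 1, and 0 under the other alternatives, where 217 to 493 genes had an unadjusted p under 0.05. The count that also passed a log2 difference of 1 was 0 to 8 when 1 library was left out. No gene passed with all libraries, so no called gene's difference could be followed. Against control, the *Chd4-ECko* count of 1159 became 1910 under quantile normalization, 378 with *Eif2s3y* as a covariate, 163 with the compared groups alone and 359 to 4591 when 1 library was left out (432, 428 and 451 without control replicates 1 to 3, and 4591, 406 and 359 without *Chd4-ECko* replicates 1 to 3). The *Brg1-ECko* count of 1426 became 426 with *Eif2s3y* as a covariate and 569 to 1237 when 1 library was left out (946 and 689 without control replicates 1 and 2, and 569 and 685 without *Brg1-ECko* replicates 1 and 3). The count of 14 between fractions became 4 with a pseudocount of 0.1, 23 with no filter, 4 with a mean of at least 5 TPM, 9 with the compared groups alone and 10 to 23 when 1 library was left out, with 23 without LSEC *Brg1-ECko* replicate 1. Same-numbered LSEC and non-EC libraries taken as 1 embryo, a block chosen after seeing the data, gave 15. The causes were not tested. Against control, 9 of the 24 called genes that were followed in *Chd4-ECko* passed under every alternative run, and 13 of the 21 in *Brg1-ECko*. Not every gene named above was followed, and *Ifit2* and *Ndrg1* were not.

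A replicate block called 0 genes between the mutants (440 at an unadjusted p under 0.05), 1438 and 1603 against control and 16 between fractions. Deviations of same-numbered *Chd4-ECko* and *Brg1-ECko* libraries correlated at -0.179 to 0.504, and of other pairs at -0.598 to 0.478, and neither the labels nor every same-numbered pair (above 0.1 in 2 of 3) show that the numbers pair the libraries.

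Of 435 gene values 8 reversed. *Rela* was 0.00516 under quantile normalization, 0.00835 with *Eif2s3y* as a covariate and -0.134 to 0.0884 when 1 library was left out. In the same fits *Afp* was -0.25 to 0.078 and *Plau* -0.0322 to 0.178. Of 26 lists, 13 kept the sign of their median in every alternative run, among them the embryonic globins (2.95 to 4.49), red cell genes (0.209 to 0.639), hypoxia and glycolysis genes (0.214 to 0.432), granulocyte and mast cell genes (-0.628 to -0.455), interferon response genes (-0.276 to -0.111) and hepatoblast plasma proteins (-0.284 to -0.0503).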

Other observations

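Sarcomere genes of heart and slow muscle, picked after their values were seen, did not share a direction. *Tnni3*, cardiac troponin I, was listed at 3.39, 17.0 and 13.2 TPM for *Chd4-ECko* replicates 1 to 3 and at 3.01, 3.33 and 3.27 TPM for *Brg1-ECko*, and *Tnni1*, slow skeletal troponin I, at 4.56, 17.0 and 10.6 TPM and at 3.56, 2.16 and 3.48 TPM. In both, *Chd4-ECko* replicate 1 lay next to the *Brg1-ECko* libraries, and *Brg1/Chd4-ECdko* embryos had 7.19, 14.5 and 10.7 TPM of *Tnni3*. *Tnnc1*, troponin C, was instead the highest in *Brg1-ECko*, as described above.

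*Clk1*, a kinase of splicing factors, and *Emc2*, a subunit of the ER membrane protein complex, separated *Chd4-ECko* replicates 2 and 3 from replicate 1. *Clk1* was listed at 97.8, 30.2 and 24.4 TPM for *Chd4-ECko* and at 74.2, 51.2 and 64.1 TPM for *Brg1-ECko*, and *Emc2* at 75.6, 30.5 and 25.7 TPM and at 66.2, 47.6 and 50.5 TPM. The share of mitochondrially encoded transcripts, at 7.37%, 3.43% and 2.33%, ordered the *Chd4-ECko* libraries in the same way, and its part in these values was not tested. *Stfa1*, a cysteine protease inhibitor of granulocytes, had a log2 difference of -3.09 between the mutants, but it was listed at 18, 0 and 0 TPM for *Chd4-ECko* and at 43.3, 17.7 and 13.0 TPM for *Brg1-ECko*, which overlap, and at 0, 0 and 172 TPM in control libraries.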
